A study of Mus musculus with 6 samples.

Results

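The genes described here are 10 that T cell precursors use at the later double negative and double positive stages of the thymus. They are Ptcra, Ly6d, Arpp21, Aqp11, Themis, Cd4, Cd8a, Cd8b1, Cd1d1 and Mns1, taken by symbol from a table of 22609 genes, of which the authors tested 16241. All 10 were found and all 10 had been tested. RNA was sequenced from early T cell progenitors (ETPs), the most immature thymocytes, sorted from fetal thymus of C57BL/6 mice, whose fetal age the labels do not give. The control group was 3 libraries from wild-type mice, sorted as cells negative for CD4, CD8, lineage markers and CD25 and positive for CD44 and c-Kit. The other group was 3 libraries of genotype E2Afl/flHEBfl/flIL7RCre, called dKO below, in which a Cre recombinase driven by the Il7r gene deletes E2A (Tcf3) and HEB (Tcf12), 2 E proteins that activate lymphoid genes through E-box sequences. The dKO cells were sorted by the same markers and also for YFP, and the controls were not, so genotype and YFP gate cannot be told apart. Cre lines driven by Il7r act from lymphoid progenitors onward, so the deletion need not be complete in every cell. The labels do not say whether libraries of a group came from separate or pooled animals, so the spread behind every p-value is that between libraries and may be technical only.

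Thymocytes pass from a double negative stage, with neither CD4 nor CD8, to a double positive stage with both. At the third double negative stage (DN3) a rearranged T cell receptor beta chain pairs with the pre-T alpha chain encoded by Ptcra, and the signal of this pre-T cell receptor lets the cell expand and become double positive. Double positive cells then express Themis and CD1d, which serve positive selection and the selection of natural killer T cells. E proteins are known regulators of these steps, and Ptcra is among their best studied targets.

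Of the 10 genes, 6 were called lower in dKO, 0 were called higher and 4 did not pass, at the authors' DESeq adjusted p under 0.05. Across all tested genes, 13.8% were called lower and 15.1% higher. At an unadjusted p under 0.05, 7 of the 10 were lower and 0 higher. Genes with more reads may be called more often. Of tested genes with a control mean of at least 500, 21.4% were called lower, against 5 of the 7 members above that level. This cut rests on the control mean alone, so it keeps genes high in control and drops those high only in dKO. The 21.4% is therefore not a share matched for read depth alone. The median log2 change of the 9 members with a fold change was -1.58, beside -0.02 over all tested genes. The calls were Ptcra, Ly6d, Arpp21, Aqp11, Mns1 and Cd4, while Themis, Cd1d1, Cd8a and Cd8b1 did not pass. By the same cut on control alone, 27 tested genes were called at least 10-fold lower, and 4 of those 27 were Ptcra, Ly6d, Arpp21 and Aqp11. The members were chosen with earlier results of these data known. Their counts and median are therefore a description and no independent test against all genes. In bulk RNA, fewer cells expressing a gene and less RNA per cell cannot be told apart.

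**Figure D1:**
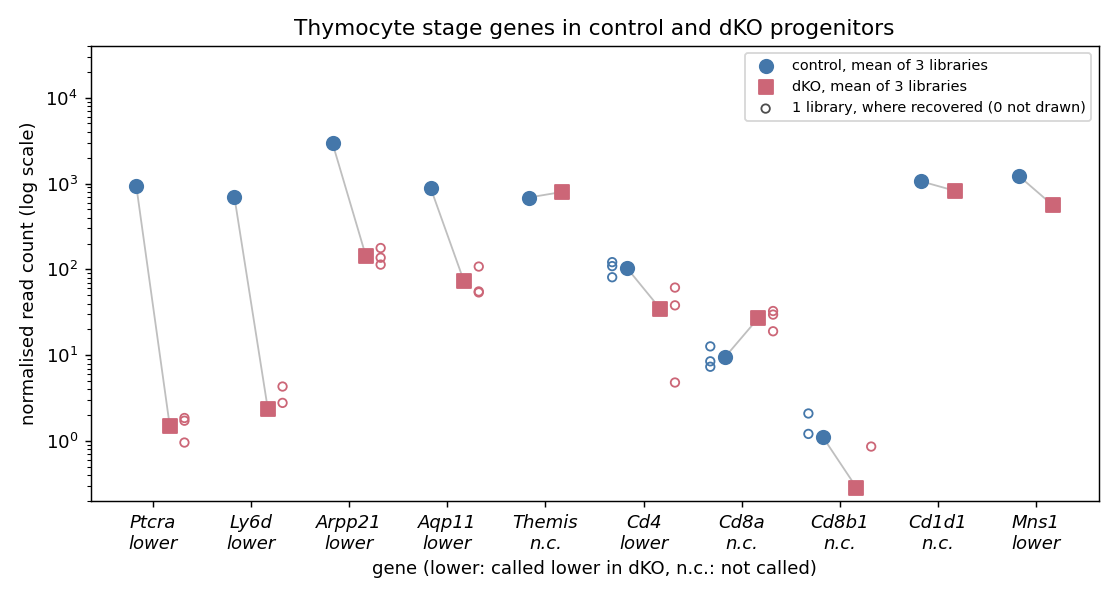
Mean normalised read count of each gene in control (circles) and dKO (squares) on a log axis, with open circles for single libraries where their reads could be recovered. Ptcra and Ly6d lie at 924 and 688 in control and at 1.52 and 2.37 in dKO, while the symbols of Themis and of Cd1d1 lie close together.

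Values per library were recovered for the lower means. A deposited mean of normalised counts is the average over a group's libraries of whole reads divided by the library's size factor (a scaling for depth). Such a mean can be solved for the reads, and for means up to 150 the whole reads were unique for 5724 of 5834 control values and all 5881 dKO values. The control libraries had size factors of 1.02, 0.952 and 0.823 and the dKO libraries 1.16, 1.08 and 1.04. They are named by these factors, since no source ties a factor to a replicate number. Taking the group total times the size factor, depth was about 18.2 to 22.6 M (mega) reads in the control libraries, below the 24.3 to 27.0 M reads in those of dKO. Both targeted genes were lower in the authors' deposited table, Tcf3 from 8931 to 364 and Tcf12 from 3845 to 562. Where a control mean was too high to be split into libraries, it is given as the authors' mean without an error.

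Ptcra, which encodes the pre-T alpha chain, averaged 924 in control and 1.52 in dKO, a 609-fold fall in the authors' deposited table (authors' DESeq adjusted p = 4.06e-111). The dKO libraries held 2, 2 and 1 reads of Ptcra, or 1.73, 1.86 and 0.963 normalised counts (1.52 ± 0.485, SD, n = 3). All 3 dKO libraries were thus within a few reads of 0. With 5 dKO reads in all, the exact Poisson 95% interval of the fold runs from 261 to 1874, which covers counting error in dKO only. Amplified reads without molecular identifiers are not independent molecules, so this interval covers less than the full error. Leaving out 1 dKO library gave folds from 515 to 686. The lincRNA Gm26904 overlaps Ptcra on the opposite strand and has no value in the table.

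The Ptcra promoter is shown because E proteins bind E-boxes, written CANNTG, and the letters CAGCTG stand 3 times in its RefSeq window (build GRCm38.p6; 250 bases before to 50 after the start). The first begins 60 bases and the next 49 bases before the start, and the last begins at base 22 of the transcript, past the end of the stretch printed. The stretch lies at chr17:46763713-46763962 on the minus strand, just before the first exon, printed 5′ to 3′ with E-box letters in capitals.
Ptcra: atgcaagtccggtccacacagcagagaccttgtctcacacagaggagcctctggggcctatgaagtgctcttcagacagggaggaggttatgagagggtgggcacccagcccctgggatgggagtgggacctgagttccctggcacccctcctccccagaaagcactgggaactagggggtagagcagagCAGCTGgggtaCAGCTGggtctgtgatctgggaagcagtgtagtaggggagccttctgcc
Over all 32851 promoter windows in the RefSeq table, 16.3% held CAGCTG at least once and 0.207% at least 3 times. The motif reads the same on both strands, and each CAGCTG is also a CANNTG. No other form of CANNTG was in the Ptcra window. The windows with at least 3 copies belong to 58 genes, of which 25 were tested: 6 were called lower, 6 higher and 13 not called. A match of letters is not a measured binding site.

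Ly6d encodes a small surface protein of the Ly6 family that marks lymphoid progenitors turning toward the B lineage and is also found on other lymphoid and plasmacytoid dendritic cells. Its level in the authors' deposited table was 688 in control but 2.37 in dKO, 290-fold lower (authors' DESeq adjusted p = 3.75e-97). The dKO libraries held 5, 3 and 0 reads, or 4.33, 2.79 and 0 normalised counts (2.37 ± 2.19, SD, n = 3). The library of size factor 1.04 had no read of Ly6d, which allows up to 3 reads. From the 8 dKO reads, the exact Poisson 95% interval of the fold runs from 147 to 672. The fall was 493-fold with the library of size factor 1.16 left out and 193-fold with that of 1.04 left out.

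Among the other Ly6 genes tested, 1 was called lower and 1 higher. Ly6e missed the threshold at 25812 and 25188 in the authors' deposited table. Ly6k fell from 55.5 to 1.53 in the authors' deposited table (authors' DESeq adjusted p = 1.49e-06), with 38.1, 79.8 and 48.6 normalised counts in the control libraries and 0.865, 3.72 and 0 in the dKO libraries. Its groups did not overlap, but the share of all genes without overlap was not computed. Ly6a, a stem cell antigen gene, rose from 613 to 2837 in the authors' deposited table (authors' DESeq adjusted p = 0.0373). Among 15 tested near relatives of the 10 genes (Ly6 and related, aquaporin, CD1 and ARPP genes, and the CD4-like Lag3), 1 was called lower, 4 higher and 10 not, with a median log2 change of 0.05. A further 10 of the 25 relatives found were at 0 in both groups.

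Because Ly6d also marks B lineage and plasmacytoid dendritic cells, their marker lists were read beside it. Of the B cell markers, Cd79b had 1143 in control and 1042 in dKO in the authors' deposited table and was not called, and Pax5 and Ms4a1 were at 0 in both groups. For plasmacytoid dendritic cells, Siglech and Klk1 were at 0 in both groups. The other 4 genes of that list besides Ly6d summed to 4509 and 10182 in the authors' deposited table. Most of the dKO sum was Irf7, called higher (800 and 5540). Tcf4 was called lower (1755 and 1038), and Bst2 (1937 and 3600) and Cox6a2 (16.5 and 2.77) were not called. The part of B cell RNA in the fall of Ly6d was not tested.

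Arpp21 encodes a cyclic AMP-regulated phosphoprotein that binds RNA and is abundant in brain and in immature thymocytes. In the authors' deposited table it averaged 2928 in control, and its dKO mean of 143 was 20.5-fold lower (authors' DESeq adjusted p = 6.53e-137). The dKO libraries held 205, 147 and 118 reads, or 177, 137 and 114 normalised counts (143 ± 32.2, SD, n = 3). Unlike Ptcra, the dKO libraries thus kept a clear signal, which was 4.87% of the control mean. Leaving out 1 dKO library gave folds from 18.7 to 23.4. A long noncoding RNA on the opposite strand that overlaps Arpp21, 2900079G21Rik, also fell, from 59.1 to 8.04 in the authors' deposited table (authors' DESeq adjusted p = 0.00406). Whether counting used strand is not given in the sources used here, so reads of the pair cannot be told apart.

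Arpp21 has 9 start sites in the RefSeq table, and the deposited values do not say which was used. One of the 2 windows with the most E-box letters, chosen for its CAGCTG, is shown beside that of Aqp11, the next gene in size of fall, which has a single start. Capitals again mark CANNTG, and both stretches end at the base before the start, on the minus strand of GRCm38.p6, at chr9:112217352-112217601 and chr7:97738248-97738497.
Arpp21: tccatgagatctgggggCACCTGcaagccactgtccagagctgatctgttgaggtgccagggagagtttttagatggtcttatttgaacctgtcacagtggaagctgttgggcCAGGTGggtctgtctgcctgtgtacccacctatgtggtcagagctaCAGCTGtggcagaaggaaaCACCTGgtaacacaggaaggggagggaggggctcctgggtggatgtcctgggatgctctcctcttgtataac
Aqp11: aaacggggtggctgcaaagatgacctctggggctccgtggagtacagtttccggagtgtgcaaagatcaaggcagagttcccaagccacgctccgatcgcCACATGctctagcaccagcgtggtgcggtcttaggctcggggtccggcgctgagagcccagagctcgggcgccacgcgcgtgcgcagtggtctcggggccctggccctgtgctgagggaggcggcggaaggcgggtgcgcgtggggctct
This Arpp21 window holds 5 CANNTG. Of these, 3 read CAGGTG on one strand or the other, 1 reads CAGCTG and the last lies past the start and is not printed. Of all windows, 2.1% hold at least 5 CANNTG. The Arpp21 window was picked from 9 for its matches, so this share of unpicked windows is no fair comparison for it. The Aqp11 window holds 1 CANNTG, the median over all windows. Of the 6 members with a window, 5 had a CANNTG in at least 1 of their windows and Mns1 had none. CAGCTG was in at least 1 window of 3 of the 6 (Ptcra, Arpp21 and Cd8a), and CAGGTG in at least 1 of Arpp21. Arpp21 has 9 windows and Themis 2, so these counts over genes are not comparable with shares of single windows. Of single windows, CANNTG was in 72.3% over the whole table and in 66.9%, 65.9% and 66.2% of those of genes called lower, called higher and not called. By call, CAGCTG was in 15.2% of windows of genes called lower, 17.3% of those called higher and 16.0% of those not called.

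Aqp11, an aquaporin of intracellular membranes, averaged 885 in control and 72.4 in dKO, a 12.2-fold fall in the authors' deposited table (authors' DESeq adjusted p = 1.97e-54). The dKO libraries held 64, 58 and 112 reads, or 55.4, 53.9 and 108 normalised counts (72.4 ± 30.7, SD, n = 3). The library of size factor 1.04 was the highest of the dKO libraries for Aqp11 and the lowest for Ptcra, Ly6d and Arpp21. Without it the fall was 16.2-fold, and it was 10.9-fold without that of 1.16 and 10.8-fold without that of 1.08. No other tested aquaporin was called lower. Aqp3, a plasma membrane channel for water and glycerol, rose from 174 to 694 and Aqp9 from 594 to 873 in the authors' deposited table (authors' DESeq adjusted p = 1.24e-16 and 0.00584). Aqp4 was also called higher, with 2, 0 and 0 reads in the control libraries and 23, 22 and 26 in the dKO libraries. Those 2 control reads are too few for a useful fold. Aqp1, at 81.6 and 33.5 in the authors' deposited table, was not called (DESeq adjusted p = 0.0600).

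Mns1 encodes a structural protein of meiotic nuclei and motile cilia. Its level in the authors' deposited table was 1211 in control but 559 in dKO, 2.17-fold lower (authors' DESeq adjusted p = 8.46e-11). The dKO mean allowed 2 sets of whole reads, both with 534 reads in the library of size factor 1.04, which is 514 normalised counts. Tex9 overlaps Mns1 on the opposite strand in the GENCODE M21 annotation and also fell, from 841 to 331 in the authors' deposited table (authors' DESeq adjusted p = 2.25e-11). Without strand, the reads where both genes lie cannot be assigned to either.

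**Figure D2:**
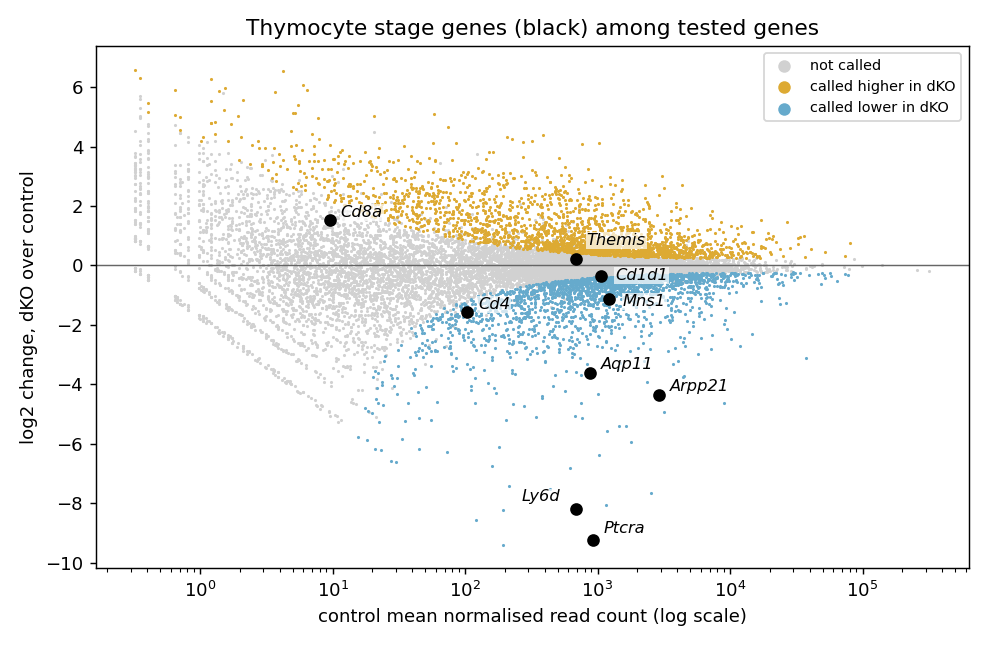
Log2 change of dKO over control against the control mean (log axis) for every tested gene with reads in both groups, with 9 of the genes described here in black and Cd8b1 left out for its few reads. Ptcra at -9.25 and Ly6d at -8.18 lie far below the bulk of genes of their level, and Themis and Cd1d1 lie in it.

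Themis and Cd1d1, genes of double positive cells, did not follow Ptcra. Themis, which sets the threshold of T cell receptor signalling in positive selection, averaged 687 in control and 798 in dKO, 1.16-fold higher in the authors' deposited table (authors' DESeq adjusted p = 0.357). Its dKO mean allowed 2 sets of reads, both with 815 reads or 785 normalised counts in the library of size factor 1.04. Cd1d1, which presents lipids to natural killer T cells, averaged 1060 in control and 825 in dKO, 1.28-fold lower in the authors' deposited table (authors' DESeq adjusted p = 0.0713). In the library of size factor 1.04 it had 963 reads, or 928 normalised counts. With the p-values of the authors adjusted again over genes with a mean of at least 10 in either group, Cd1d1 still missed the threshold (DESeq test of the authors, Benjamini-Hochberg adjusted p = 0.0583).

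Cd1d1 has a near-identical copy, Cd1d2, between which reads may be split. Cd1d2 had 143, 96.6 and 177 normalised counts in the control libraries (139 ± 40.5, SD, n = 3) and 77.0, 67.0 and 104 in the dKO libraries (82.7 ± 19.2, SD, n = 3). The highest dKO library overlapped the lowest control library, and Cd1d2 missed the threshold (DESeq adjusted p = 0.155 in the authors' deposited table). The level of either copy is uncertain for this reason.

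The coreceptor genes were low in both groups, which were both sorted as cells without surface CD4 and CD8. Cd4, the coreceptor for MHC class II, had 81.0, 109 and 121 normalised counts in the control libraries (104 ± 20.7, SD, n = 3) and 61.4, 38.1 and 4.82 in the dKO libraries (34.8 ± 28.4, SD, n = 3). Every dKO library was below every control library, but the share of all genes without overlap was not computed. The 5 reads in the dKO library of size factor 1.04 were far below the 71 and 41 of the others. Cd4 was called 2.99-fold lower in the authors' deposited table (authors' DESeq adjusted p = 0.0101). The exact permutation test over the libraries gave a 2-sided p of 0.1, the smallest that 3 against 3 allows. The fall was 2.09-fold with the dKO library of 1.04 left out and 4.84-fold with that of 1.16 left out. At an adjusted p under 0.01 the call was lost.

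Cd8a, the alpha chain of the coreceptor for MHC class I, pointed the other way. It had 12.7, 7.35 and 8.50 normalised counts in the control libraries (9.51 ± 2.81, SD, n = 3) and 19.0, 29.8 and 32.8 in the dKO libraries (27.2 ± 7.21, SD, n = 3). The dKO libraries were all above the control libraries, by 2.86-fold on the means, from 27 reads in control and 88 in dKO. Here too the share of all genes without overlap was not computed. Cd8a did not pass (authors' DESeq adjusted p = 0.298, and exact permutation test, 2-sided p = 0.1, the smallest possible). Leaving out 1 library of either group gave folds from 2.56 to 3.43. Cd8b1, the beta chain that completes the heterodimer on double positive cells, had 0, 2 and 1 reads in control and 1, 0 and 0 in dKO. Both groups were thus at or under the limit that 3 reads set, so no fold is given (DESeq adjusted p = 0.991 in the authors' deposited table).

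**Figure D3:**
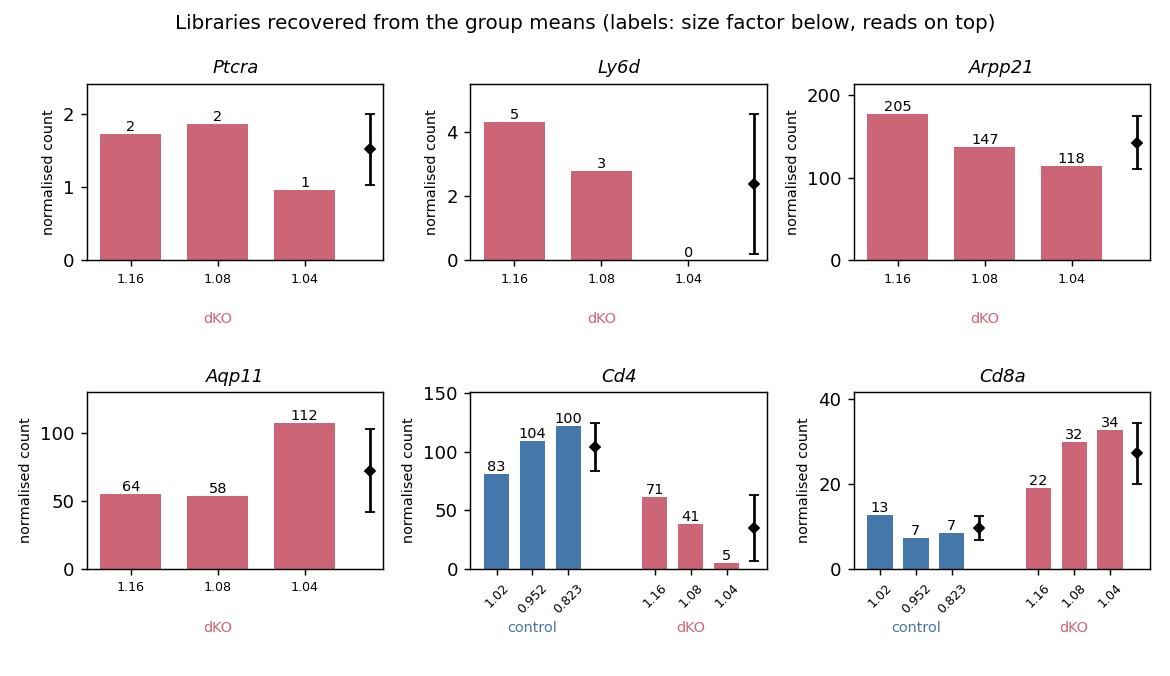
Normalised read count per library for the 6 genes whose dKO libraries could be resolved and that have a fold, with the size factor of each library below, its reads on top, and the group mean ± SD as a diamond with bar. Control libraries (blue) are drawn where they too could be resolved, and Cd4 and Cd8a then show no overlap between groups, in opposite directions. Cd8a was not called, and the share of all genes without overlap was not computed.

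Markers of cells that carry CD4 or CD8 alpha were read beside these genes. Of 7 double positive markers, 2 were called lower, 1 higher and 4 not. Those besides the 3 coreceptor genes summed to 2732 and 2986 in the authors' deposited table, most of it Ccr9 (1960 and 2140). Dntt, which encodes the terminal transferase of rearranging lymphocytes, had 7 control reads, all in the library of size factor 0.823, and 0 in dKO. Cd8b1 and Dntt, both in the double positive marker list, were thus near 0 in both groups. Whether double positive cells were present was not tested. Lymphoid tissue inducer cells can carry CD4: of the 8 genes listed for them, 5 were called higher and 2, Cd4 and Ccr6, lower. Without Cd4 they summed to 2791 in control and 14068 in dKO in the authors' deposited table, and none was at 0. Some conventional dendritic cells carry CD8 alpha: Xcr1, Batf3 and Irf8 were called higher and Itgax and Flt3 lower among 6 tested genes. That list summed to 1632 and 1406 in the authors' deposited table, with Clec9a at 0 in both groups. Xcr1 was at 33.2, 48.3 and 43.7 normalised counts in control and at 394, 338 and 374 in dKO. The part of these cells in the Cd4 and Cd8a values was not tested.

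Markers of other cells that the gate could have let through were also read. Of 5 tested myeloid markers, 3 were called lower and 0 higher, and the list summed to 8644 in control and 2069 in dKO in the authors' deposited table, with Cd14 at 0 in both. Most of the myeloid sum was Mpo, at 7310 and 1457 in the authors' deposited table. Of 4 tested erythroid markers, 1, Beta-s, was called lower and 3 were not called. The list summed to 1414 and 445 in the authors' deposited table, and 5 globin genes were at 0 in both. Most of the control sum was Beta-s, itself a globin gene, at 1032 in control and 12.3 in dKO. The zeros thus do not mean that globin RNA was absent. Of 6 tested genes of thymic epithelium and stroma, 1, Pecam1, was called lower (1.28-fold) and 5 were not called, the list summed to 2930 and 2495 in the authors' deposited table, most of it Pecam1, and Pdgfra was at 0 in both. The part of these cells in the 10 genes was not tested.

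Of the 6 genes of the gate, 1 was called lower, Cd4, and 1 higher, Kit. Kit, which encodes c-Kit, rose from 14094 to 19067 in the authors' deposited table (authors' DESeq adjusted p = 0.00227). Cd44 had 3220 and 2765 in the authors' deposited table, and Il2ra, which encodes CD25, had 8417 and 8536. Neither passed. Il2ra was thus above Cd44 in both groups, although the gate took cells negative for CD25. Whether cells of later stages were in the libraries was not tested.

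To order the 10 genes by level, means were divided by length (the longest coding transcript in GENCODE M21). In control, the normalised count per kilobase was 925 for Ly6d, 741 for Arpp21, 720 for Ptcra, 545 for Cd1d1, 237 for Aqp11, 231 for Mns1, 135 for Themis, 33.4 for Cd4, 3.04 for Cd8a and 0.745 for Cd8b1. In dKO, the order began with Cd1d1 at 424 per kilobase, Themis at 157, Mns1 at 107, Arpp21 at 36.1, Aqp11 at 19.4, Cd4 at 11.2 and Cd8a at 8.69, and ended with Ly6d at 3.19, Ptcra at 1.18 and Cd8b1 at 0.194. Ptcra and Ly6d thus went from the top 3 places to below Cd8a. Control neighbours such as Aqp11 and Mns1, or Arpp21 and Ptcra, cannot be ranked against their spread, since these control means have no value per library.

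The other genes of the DN3 stage and of beta-selection moved in both directions. Of 28 tested, Ptcra included, 13 were called lower, 7 higher and 8 not, with a median log2 change of -0.40. The 4 with the smallest adjusted p, Ptcra among them, were all lower. Next by adjusted p was Cd28, called 9.8-fold higher (124 in control and 1217 in dKO). The other genes called higher were Cd247, Egr1, Egr2, Egr3, Id3 and Ccnd3, with Egr2 15.6-fold higher (22.6 and 352). The authors' deposited table gave the receptor gene Notch3 as 3163 and 105 (30.2-fold lower), Rag2, of the recombinase that rearranges receptor genes, as 2363 and 157 (15.1-fold) and Notch1 as 10176 and 1829 (5.56-fold). The dKO libraries of Notch3 were at 109, 67.0 and 138 normalised counts and those of Rag2 at 200, 97.7 and 172, and in both the library of size factor 1.08 was the lowest. Bcl11b, a T commitment factor, had 4649 and 7548 in the authors' deposited table, Il2ra 8417 and 8536, and Trp53 15083 and 13552, and none of the 3 passed.

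Of 24 tested double positive genes, a list that holds none of the 10, 11 were called lower, 9 higher and 4 not, with a median log2 change of -0.39. Rag1, the partner of Rag2, was 61.0-fold lower in the authors' deposited table, at 1784 and 29.2. Its dKO libraries were at 8.65, 24.2 and 54.9 normalised counts, an order opposite to that of Cd4. The authors' deposited table gave the tetraspanin Cd53 as 3.05-fold higher (4201 and 12825) and Tox, a factor of CD4 lineage development, as 2.62-fold higher (2018 and 5291). Ccr9 had 1960 and 2140, Bcl6 74.2 and 50.9, and St8sia6 30.9 and 76.3 in the authors' deposited table, and none passed. Rag1, Rag2 and Cd5, all called lower, are in both this list and the DN3 list, so the counts of the lists are not separate.

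Of 19 tested regulators of the Cd4 and Cd8 genes, 9 were called higher, 5 lower and 5 not, with a median log2 change of 0.35. Over all tested genes, 15.1% were called higher and 13.8% lower. Genes with more reads may be called more often, and no share of higher calls at a matched level was computed. The authors' deposited table gave Myb, a factor of progenitors and double positive cells, as 4.93-fold lower (14608 and 2962). Gata3, which promotes the CD4 lineage, was 3.26-fold higher (7051 and 22961), and Ikzf3 was 4.83-fold higher (774 and 3741), both in the authors' deposited table. Dnmt1 (15272 and 15751) and Smarca4 (11258 and 10034) in the authors' deposited table were not called. With at least a 2-fold change required as well, 2 were lower and 5 higher, and of the double positive genes 4 rather than 9 were higher.

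**Figure D4:**
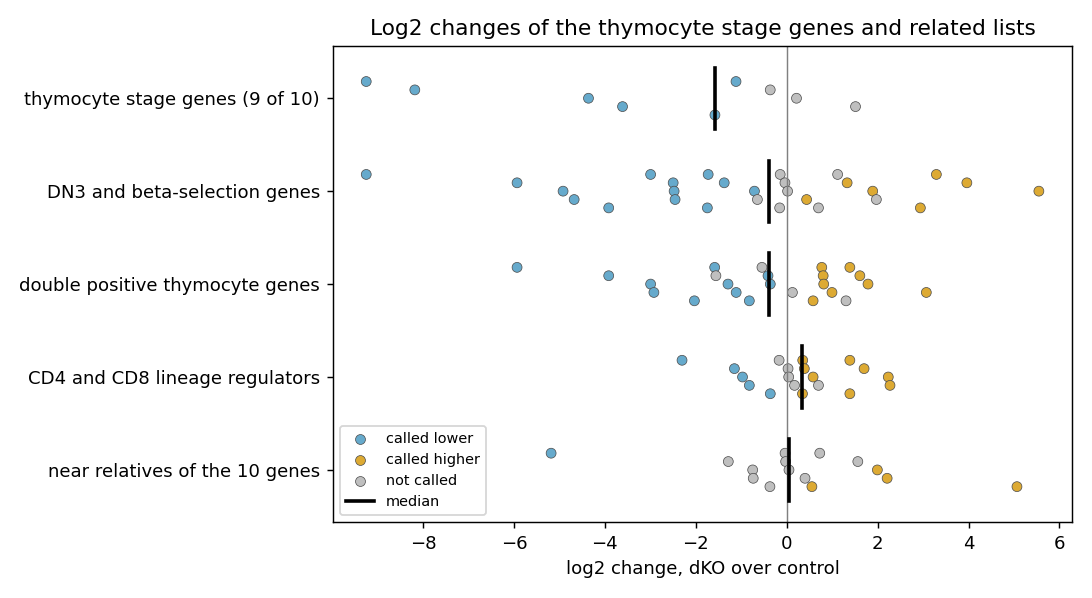
Log2 change of dKO over control for each tested gene (points, spread vertically for legibility) of the genes described here and of 4 related lists, with the median of each as a black bar. The median is -1.58 for the 9 genes with a fold, -0.40 and -0.39 for the DN3 and double positive lists and 0.35 for the coreceptor regulators.

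The called genes most like each of the 4 deepest falls, in log2 change and with a control mean within 1.5-fold, were then read from the authors' deposited table. With only 2 group means per gene this likeness rests on 1 contrast. For Ptcra, among 1043 candidates, they were Ly6d and Mpzl2 (1160 in control and 4.36 in dKO). For Ly6d they were Ptcra and Esm1 (624 and 5.58 in the authors' deposited table). The nearest to Arpp21 were Rag2 and Notch3, at 15.1-fold and 30.2-fold lower in the authors' deposited table. The nearest to Aqp11 were Fgf3, 11.9-fold lower, and Colq, 12.7-fold lower, in the authors' deposited table.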

How the data were processed

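RNA of sorted cells was amplified as cDNA with a low-input SMARTer kit, made into libraries and sequenced on an Illumina HiSeq, per the labels' protocols. Tools named in the submitters' processing notes, with no role, are DESeq (version 2), TopHat2 2.0.14 and bcl2fastq 1.8.4, and the build is mm9. Counter, annotation and strand use: not given in the sources used here. The single table's signal columns hold, per the file headers, a mean over each group of counts that the authors had normalised for depth. Its fold column is the ratio of dKO to control mean as deposited, its p-value columns are the authors' own, and redoing the Benjamini-Hochberg adjustment gave the deposited values within 4.08e-07. The table has no values per library, so calls are the authors' (adjusted p under 0.05), and log2 changes were taken here from those means. A group at 0 was set to 3 reads over the group, 1.21 in control and 0.963 in dKO.

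Reads per library were recovered with Python 3.11.15 and NumPy 2.4.6 by solving each mean for whole reads, a step checked on simulated data, and the p-values over libraries came from SciPy 1.17.1. Depth was about 18.2 to 27.0 M (mega) reads per library. Promoter windows came from RefSeq (GRCm38.p6), matched by symbol for 6 of the 10 genes, and lengths and overlaps from GENCODE M21. The members and lists were chosen with earlier results of these data known. Besides the 10 genes, the targeted and the gate genes, each list names up to 4 called genes, by lowest adjusted p, and 3 that were not called, by mean count. Genes named outside this rule, chosen after their values were seen, are Ly6a, Aqp1, Tex9, 2900079G21Rik, Cd5, the DN3 and beta-selection genes called higher, and single markers. Part of the B cell marker list is not reported here.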

Additional observations from a re-analysis of the deposited data

How the results depend on the processing

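Of the 10 genes, 6 stayed called lower with a minimum change of 2-fold and with p-values adjusted again over genes with a mean of at least 10 in either group, and 5 at an adjusted p under 0.01, where Cd4 was lost. None was called higher under these 3 alternatives. Rescaling to equal totals moved every log2 change by -0.08, and neither it, centring on the median of tested genes nor a pseudocount of 1 or 10 turned a sign: 7 of 9 genes stayed below 0. A pseudocount moved the log2 change of Ptcra from -9.25 to -8.52 (pseudocount 1) and -6.34 (pseudocount 10), since its dKO mean is a few reads. Leaving out 1 library turned no sign in the 6 genes where libraries were recovered, with log2 changes of -9.42 to -9.01 for Ptcra, -8.95 to -7.60 for Ly6d, -4.55 to -4.22 for Arpp21, -4.02 to -3.44 for Aqp11, -2.27 to -1.06 for Cd4 and 1.36 to 1.78 for Cd8a. It could not be run for Themis, Cd1d1 and Mns1, nor for control libraries of the deep falls. With a minimum change of 2-fold, calls over all tested genes went from 2247 lower and 2460 higher to 925 and 1114, double positive genes called higher from 9 to 4, and coreceptor regulators from 5 lower and 9 higher to 2 and 5. Near relatives called lower went from 1 to 2 with the p-values adjusted again, and those called higher from 4 to 2 at an adjusted p under 0.01. No paired analysis was possible because the table holds group means and the recovered libraries carry no replicate number.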
